A study of Homo sapiens with 8 samples.

Results

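The genes described are chemokines, LCN2 and NF-κB response genes: CXCL1, CXCL2, CXCL3, CXCL16, CCL20, LCN2, SAA1, NFKBIA, TNFAIP3 and BIRC3. They were taken by name from the table of gene counts, which held 10 of the 10 among its 25369 genes. The study asked how the stiffness of the matrix and its collagen-1 (col-1) change gene expression in MCF10A, a spontaneously immortalized, non-malignant line of human mammary epithelial cells, kept for 7 days inside gels. RNA was sequenced from 4 gels with 2 libraries each, numbered replicate 1 and replicate 2, which the study describes as independent trials. Soft IPN was an interpenetrating network of alginate and reconstituted basement membrane (rBM) without crosslinking of the alginate. Stiff IPN was the same network with its alginate crosslinked by calcium. Soft col:rBM was a mix of col-1 and rBM, and stiff col was col-1 without rBM. All cells came from this 1 line. The collagen gels differ from each other in rBM and col-1 density as well as in stiffness, and the effects of these cannot be told apart.

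Chemokines are small secreted proteins that bind receptors on leukocytes and guide their movement. Epithelia of the breast and other organs make several of them, together with acute phase and antimicrobial proteins such as LCN2 and SAA1, when cytokines or microbial products activate NF-κB. In resting cells IκB proteins hold NF-κB dimers in the cytoplasm. IKK kinases mark IκB for breakdown, the dimers enter the nucleus, and among the genes they switch on are NFKBIA and TNFAIP3, whose products shut the pathway down again.

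Each value is a deposited normalized count: reads on a gene scaled by 1 factor per library and rounded by the authors. The libraries held between 13042225 and 18559161 reads on genes, estimated from the deposited sums and multiplying factors. These factors, of 0.8036 to 1.2418, were themselves estimated from the values. The paper used paired-end sequencing and gives a higher depth in reads after filtering. Whether a count stands for a read or a read pair is not stated there. A floor of 3 reads corresponded to 2.41 to 3.73 normalized counts, and such floors cover counting error only, because molecules were not tagged with identifiers before amplification. All 10 genes were above the floor in all 8 libraries and passed the filter on low values that left 13349 genes to test. Differences between gels are log2 fold changes of normalized counts plus 1, tested with limma. Their p-values were adjusted over all genes tested by the Benjamini-Hochberg (BH) method at 0.05. Each standard error (SE) comes from 1 fit to all 8 libraries, with a variance that limma shares between genes. The SE is thus not the spread of the 2 gels compared alone, and n counts the libraries compared. With 2 against 2 libraries an exact permutation test cannot give a 2-sided p under 0.333, so these p-values rest on the variance that limma shares between genes. A fit with a replicate block adds a term for replicate number, and its adjusted p is given beside that of the fit without it. The comparisons share gels, so their values stand side by side and none is independent of the rest.

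Across all genes limma called 0 genes (0%) between stiff IPN and soft IPN, with 1245 genes at an unadjusted p under 0.05. With the replicate block it called 226 genes higher in stiff IPN (1.69%) and 285 lower (2.13%). That sum of 511 was 0 without soft IPN replicate 2, 241 without soft IPN replicate 1, 2686 and 1087 without stiff IPN replicates 1 and 2, 328 and 317 without those of soft col:rBM, and 294 and 253 without those of stiff col. Of the 10 genes described, 5 passed with the block, and these 5 were higher in stiff IPN: CXCL1, CXCL2, LCN2, SAA1 and BIRC3. Both stiff IPN libraries were above both soft IPN libraries for 8 of the 10 genes, against 20.5% of all genes tested, and below them for 0 of 10, against 21.4%. The overlapping genes were NFKBIA and TNFAIP3. The median log2 fold change over the 10 genes was 1.16, against -0.01 over all genes tested. The genes described were chosen with earlier results of these data known, as were the lists further below. Such counts and medians therefore describe them and are not a test of them as a set. In the bulk RNA of a gel, fewer cells that express a gene and less of its RNA per cell cannot be told apart.

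**Figure D1:**
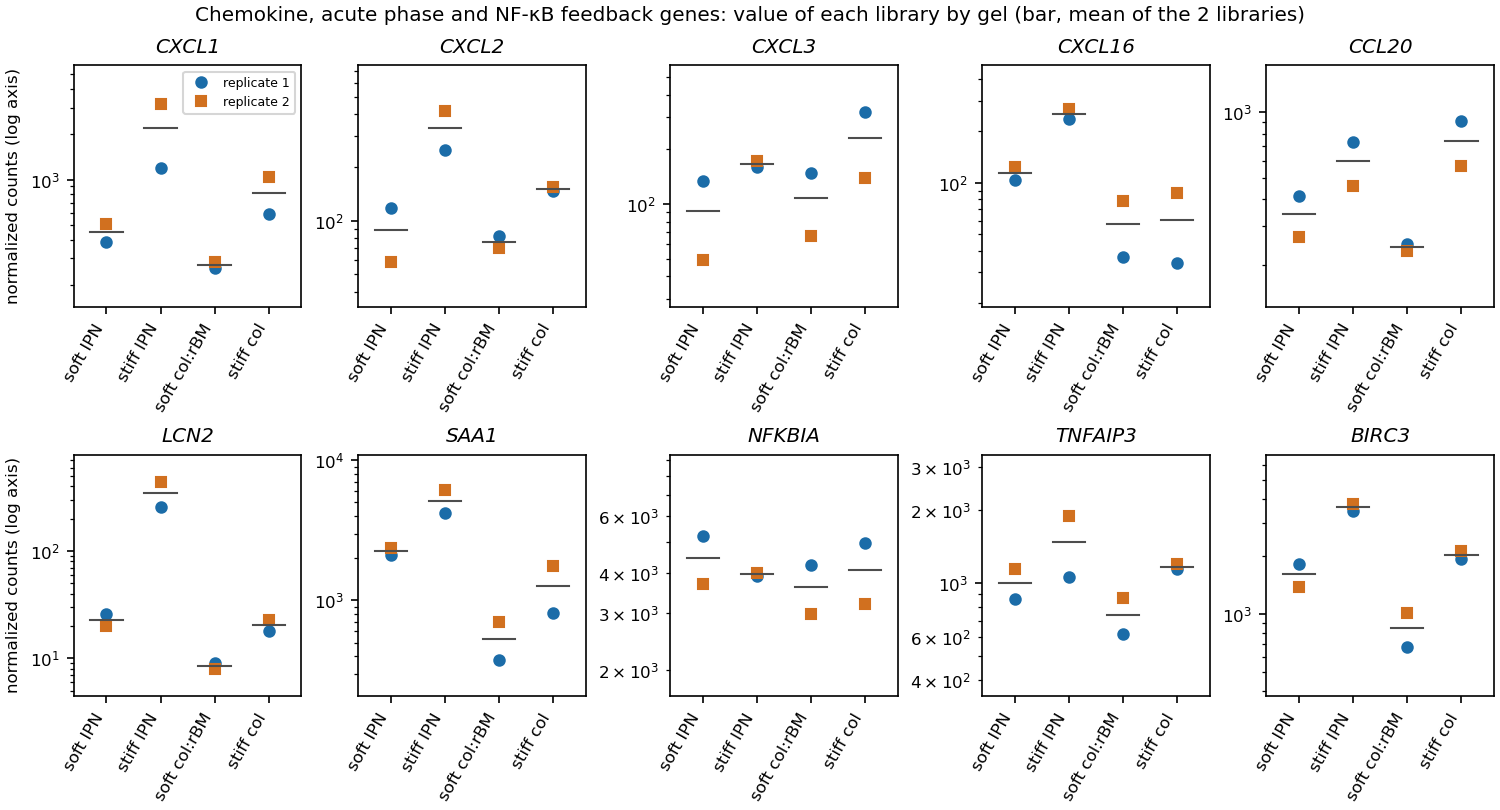
Normalized counts (vertical log axes) of the 10 genes, 1 panel each, in the 8 libraries grouped by gel, with circles for replicate 1, squares for replicate 2 and a bar at the mean of the 2 libraries. LCN2 was at 258 and 441 in stiff IPN and between 8 and 26 in the other 3 gels, whereas the NFKBIA points of the 4 gels overlap.

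CXCL1, CXCL2 and CXCL3 are ligands of the receptor CXCR2 that draw neutrophils. Their genes (ENSG00000163739, ENSG00000081041 and ENSG00000163734 in GENCODE 44) lie in 1 cluster in hg19, at chr4:74735110-74737025 on the plus strand for CXCL1, at chr4:74962757-74964913 on the minus strand for CXCL2 and at chr4:74902306-74904524 on the minus strand for CXCL3. CXCL2 and CXCL3 are 58.2 kb apart and CXCL1 is 165 kb from CXCL3. Their promoters are shown because the genes are close relatives with a match to the κB consensus, the binding motif of NF-κB, at nearly the same distance from the start. The sequences come from RefSeq (GRCh38.p14) and their places are given in hg19: chr4:74735006-74735066 (+) for CXCL1, chr4:74964955-74965015 (-) for CXCL2 and chr4:74904450-74904510 (-) for CXCL3. They are written 5′ to 3′ on the strand of the gene, and capitals mark the consensus match.
CXCL1: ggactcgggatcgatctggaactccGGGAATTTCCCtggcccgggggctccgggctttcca
CXCL2: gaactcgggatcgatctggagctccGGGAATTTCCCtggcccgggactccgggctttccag
CXCL3: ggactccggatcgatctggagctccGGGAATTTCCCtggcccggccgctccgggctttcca
The capitals are the same letters in these 3 genes, and they hold a match on each strand that overlaps the other, which begins 79 bases before the start in CXCL1 and CXCL3 and 78 bases before it in CXCL2. Over 60 bases that hold the match, aligned with gaps allowed, CXCL1 was identical to CXCL3 at 93.3% without a gap and to CXCL2 at 93.3% with 1 gap, and CXCL2 to CXCL3 at 91.7% with 1 gap. The CXCL3 stretch lies in an exon of a non-coding CXCL3 transcript. A match describes the letters and is not evidence of binding.

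CXCL1 measured 386 and 508 normalized counts in soft IPN (replicates 1 and 2, in this order throughout), 1188 and 3191 in stiff IPN, 257 and 282 in soft col:rBM, and 594 and 1038 in stiff col. No gel overlapped another: stiff IPN was highest, then stiff col, soft IPN and soft col:rBM, although the stiff IPN libraries lay far apart. The log2 fold change of stiff IPN over soft IPN was 2.13 (SE 0.47, n = 2 and 2), with an adjusted p of 0.473 by limma and BH, and of 0.0171 with the replicate block. The difference was 1.62 among replicates 1 and 2.65 among replicates 2. The blocked call was lost without soft IPN replicate 1 (adjusted p 0.0567) or soft IPN replicate 2 (0.34).

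CXCL2 measured 118 and 59 normalized counts in soft IPN, 252 and 418 in stiff IPN, 82 and 70 in soft col:rBM, and 147 and 156 in stiff col. Stiff IPN was highest and stiff col next, and the soft gels overlapped each other below them. Stiff IPN exceeded soft IPN by a log2 fold change of 1.95 (SE 0.40, n = 2 and 2), with an adjusted p of 0.43, and of 0.0374 with the block, a call that was lost without soft IPN replicate 2 (0.389). CXCL3 measured 134 and 49 normalized counts in soft IPN, 159 and 172 in stiff IPN, 149 and 67 in soft col:rBM, and 322 and 139 in stiff col. Replicate 1 was above replicate 2 in 3 of the 4 gels, and stiff IPN lay above both soft gels, while stiff col overlapped stiff IPN and soft col:rBM. The CXCL3 difference between stiff IPN and soft IPN, 1.02 (SE 0.62), did not pass with the block either (adjusted p 0.14). This difference was 0.30 without soft IPN replicate 2 and 1.73 without soft IPN replicate 1.

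CXCL16 (ENSG00000161921, chr17:4636828-4643223, minus strand) is made as a membrane protein with a chemokine domain, can be shed, and is the ligand of CXCR6. It measured 104 and 123 normalized counts in soft IPN, 235 and 269 in stiff IPN, 37 and 78 in soft col:rBM, and 34 and 87 in stiff col. The collagen gels overlapped each other and lay below both alginate gels, with stiff IPN highest. Its log2 fold change of stiff IPN over soft IPN was 1.15 (SE 0.52), with adjusted p-values of 0.539 and, with the block, 0.0913.

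CCL20 (ENSG00000115009, chr2:228670455-228682280, plus strand) is the ligand of CCR6 and attracts dendritic cells and lymphocytes. Its promoter stretch is shown as that of the 1 CC chemokine among the genes. The match begins 79 bases before the start, on the strand opposite to the gene, in chr2:228678454-228678513 (+), within an intron of a longer CCL20 transcript.
CCL20: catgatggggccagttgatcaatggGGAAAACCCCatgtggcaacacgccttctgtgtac
CCL20 measured 414 and 267 normalized counts in soft IPN, 735 and 460 in stiff IPN, 250 and 231 in soft col:rBM, and 914 and 569 in stiff col. The stiff gels overlapped each other and lay above soft IPN, which lay above soft col:rBM. Replicate 1 was the higher of the pair in all 4 gels. The log2 fold change of stiff IPN over soft IPN was 0.80 (SE 0.35), with adjusted p-values of 0.53 and, with the block, 0.0558. In stiff IPN, per kilobase of transcript, CXCL1 had the highest level of the 5 chemokines at 1864.99 normalized counts. Below it were CCL20 at 716.43, CXCL2 at 300.45, CXCL3 at 153.95 and CXCL16 at 108.43. Per kilobase, CCL20 was instead above CXCL1 in soft IPN (408.27 against 380.75), soft col:rBM (288.37 against 229.56) and stiff col (889.09 against 695.06).

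LCN2 (ENSG00000148346, chr9:130911350-130915732, plus strand) encodes lipocalin 2, a secreted protein that binds bacterial siderophores and so withholds iron. Its promoter stretch, chr9:130911544-130911591 (+), is shown because LCN2 differed most between gels among the 10 genes. It lies within the LCN2 gene, in an intron of a longer transcript, and its match begins 175 bases before the start on the opposite strand.
LCN2: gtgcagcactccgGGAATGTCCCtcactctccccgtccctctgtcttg
LCN2 measured 26 and 20 normalized counts in soft IPN, 258 and 441 in stiff IPN, 9 and 8 in soft col:rBM, and 18 and 23 in stiff col. Stiff IPN stood far above the other gels, soft IPN and stiff col overlapped, and soft col:rBM was lowest but above the floor. The log2 fold change of stiff IPN over soft IPN was 3.83 (SE 0.41, n = 2 and 2), or 14.2-fold, and was 3.26 among replicates 1 and 4.40 among replicates 2. Its adjusted p was 0.243, and 0.00671 with the replicate block. That call was lost without soft IPN replicate 2 (0.234). LCN2 also passed without the block when only the IPN libraries were fitted (0.0446), within a range of 0.00671 to 0.999 over all alternatives.

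SAA1 (ENSG00000173432, chr11:18287807-18291524, plus strand) encodes serum amyloid A1, an apolipoprotein that the liver and epithelia release in the acute phase. It measured 2126 and 2361 normalized counts in soft IPN, 4218 and 6114 in stiff IPN, 373 and 696 in soft col:rBM, and 808 and 1746 in stiff col. No gel overlapped another, and both alginate gels lay above both collagen gels. The log2 fold change of stiff IPN over soft IPN was 1.18 (SE 0.43, n = 2 and 2), with an adjusted p of 0.5, and of 0.0366 with the block, a call that was lost without soft IPN replicate 2 (0.399). SAA1 had the highest level of the 10 genes per kilobase of transcript in stiff IPN, 9972.97 normalized counts, against 426.22 for LCN2. Per kilobase, NFKBIA was above SAA1 in soft col:rBM (2311.74 against 1031.85) and stiff col (2614.82 against 2465.25). In soft IPN it was below SAA1 (2849.58 against 4331.08). Of the 50-base windows of the SAA1 transcript, 40.9% occur also in its neighbour SAA2, 17.6 kb away, and since reads mapping to several places were removed, the level is that of the remaining sequence. For CXCL2 this share was 10.1%, for CXCL1 5.33%, for CXCL3 5.26%, for CXCL16 4.62% and for BIRC3 1.29%, and it was 0 for the other 4 genes.

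NFKBIA encodes IκBα, the inhibitor that NF-κB resynthesizes to end its own response. TNFAIP3 encodes A20, a ubiquitin-editing enzyme that restrains IKK activation, and BIRC3 encodes cIAP2, a ubiquitin ligase of the TNF receptor complex that guards against cell death. The genes lie at chr14:35870285-35873955 (minus strand, ENSG00000100906), chr6:138188351-138204451 (plus strand, ENSG00000118503) and chr11:102188215-102210134 (plus strand, ENSG00000023445). Their stretches are shown to set the promoters of feedback genes beside those of the chemokines: chr14:35874002-35874061 (-) for NFKBIA, chr6:138188304-138188350 (+) for TNFAIP3 and chr11:102187991-102188114 (+) for BIRC3.
NFKBIA: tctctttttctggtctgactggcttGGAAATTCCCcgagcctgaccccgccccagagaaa
TNFAIP3: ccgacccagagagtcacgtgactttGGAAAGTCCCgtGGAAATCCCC
BIRC3: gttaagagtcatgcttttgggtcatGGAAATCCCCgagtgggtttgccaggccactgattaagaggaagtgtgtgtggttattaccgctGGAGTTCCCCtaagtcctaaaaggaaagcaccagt
The matches lie on the strand opposite to the gene and begin 81 bases before the start in NFKBIA, 67 and 55 bases before it in TNFAIP3, and 199 and 135 bases before it in BIRC3. The TNFAIP3 stretch lies within the span of the long non-coding RNA gene WAKMAR2 on the opposite strand, and the BIRC3 stretch within that of another, ENSG00000288528.

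NFKBIA measured 5197 and 3688 normalized counts in soft IPN, 3914 and 4002 in stiff IPN, 4234 and 2974 in soft col:rBM, and 4946 and 3207 in stiff col. All gels overlapped, and replicate 1 was above replicate 2 in 3 of the 4. For stiff IPN over soft IPN the log2 fold change was -0.15 (SE 0.30, n = 2 and 2), with adjusted p-values of 0.897 and, with the block, 0.661, and it was 0.10 without soft IPN replicate 1. TNFAIP3 measured 861 and 1147 normalized counts in soft IPN, 1064 and 1880 in stiff IPN, 616 and 864 in soft col:rBM, and 1139 and 1201 in stiff col. Soft IPN overlapped each of the other gels, the stiff gels overlapped each other, and soft col:rBM lay below both of them. Its log2 fold change of stiff IPN over soft IPN was 0.51 (SE 0.31), with adjusted p-values of 0.608 and, with the block, 0.141. Without stiff IPN replicate 2 it was 0.10, and without stiff IPN replicate 1 it was 0.92.

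BIRC3 measured 1836 and 1387 normalized counts in soft IPN, 3446 and 3769 in stiff IPN, 674 and 1013 in soft col:rBM, and 1935 and 2130 in stiff col. The gels did not overlap, in the order stiff IPN, stiff col, soft IPN and soft col:rBM that CXCL1 also had. Between stiff IPN and soft IPN the log2 fold change was 1.17 (SE 0.25, n = 2 and 2), with an adjusted p of 0.43, and of 0.0354 with the block, a call that was lost without soft IPN replicate 2 (0.385). Without that library limma with the block called 0 of all genes in this comparison, so the 5 calls among the genes described rest on it. Per kilobase of transcript in stiff IPN, NFKBIA had 2538.81 normalized counts, BIRC3 524.57 and TNFAIP3 315.54.

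**Figure D2:**
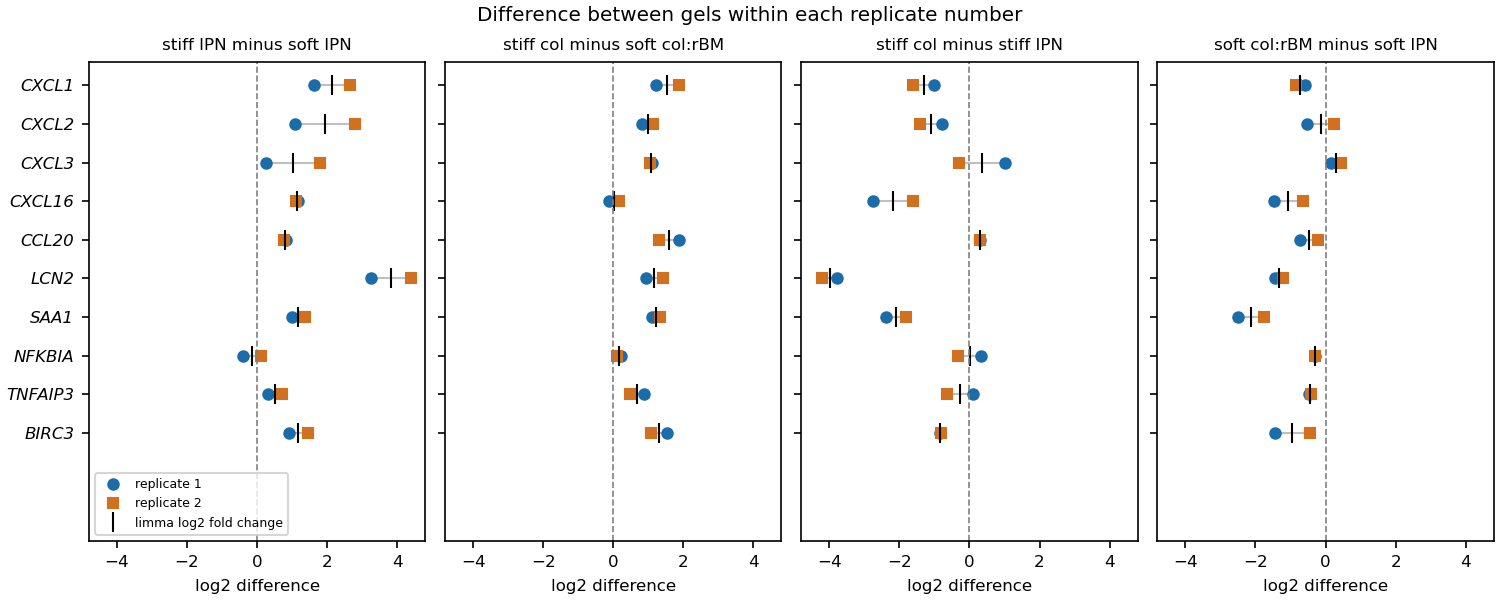
Log2 differences (horizontal axes) of the 10 genes (vertical axis) in 4 comparisons of gels, with circles for replicate 1, squares for replicate 2 and a tick at the log2 fold change from limma. The LCN2 tick is farthest from 0, at 3.83 for stiff IPN minus soft IPN and -3.99 for stiff col minus stiff IPN, and the NFKBIA ticks lie between -0.30 and 0.17 in all 4, with replicate values from -0.41 to 0.34.

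The comparison of stiff col with soft col:rBM asks about stiffness among collagen gels, together with their differences in rBM and col-1 density. Limma called 0 genes (0%), with 140 genes at an unadjusted p under 0.05, and 0 genes with the replicate block (0%). All 10 genes had a positive log2 fold change, with a median of 1.12 against 0.00 over all genes tested, but 2 of them changed sign with a library left out. CXCL16, at 0.02, went to -0.51 without soft col:rBM replicate 1 and -0.65 without stiff col replicate 2, and NFKBIA, at 0.17, to -0.09 without soft col:rBM replicate 2 and -0.15 without stiff col replicate 1. Both stiff col libraries lay above both soft col:rBM libraries for 7 of the 10, against 9.51% of all genes tested, and below them for 0 of 10, against 9.5%. CCL20 differed most, by 1.58 (SE 0.35, n = 2 and 2), with an adjusted p of 1, and of 0.113 with the block. CXCL1 followed at 1.54 (SE 0.47) and BIRC3 at 1.30 (SE 0.25), with blocked adjusted p-values of 0.358 and 0.31. For SAA1 the log2 fold change was 1.22 and for LCN2 it was 1.17, neither of which passed.

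Whether the stiff and soft gels differed otherwise among the collagen gels than among the IPNs was tested by the difference of both differences. The collagen difference holds rBM and col-1 density as well as stiffness. Limma called 0 genes (0%), with 278 genes at an unadjusted p under 0.05, and 2 genes with the block (0.015%), KRT6B and PGBD5, which are named after their values were seen and are not among the genes described. LCN2 had the largest value of the 10, -2.66 (SE 0.58), that is a smaller difference in the collagen gels, with an adjusted p of 1, and of 0.181 with the block. The other 9 genes lay between -1.13 for CXCL16 and 0.78 for CCL20, and none passed.

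Stiff col and stiff IPN are both stiff but share neither polymer nor rBM. Limma called 0 genes (0%), with 838 genes at an unadjusted p under 0.05, and with the block 134 genes higher in stiff col (1%) and 196 lower (1.47%). That sum of 330 was 108 and 110 without soft IPN replicates 1 and 2, 2212 and 725 without those of stiff IPN, and 36 and 86 without those of stiff col. Of the genes described, LCN2, SAA1 and CXCL16 passed with the block, all lower in stiff col. Both stiff col libraries lay below both stiff IPN libraries for 6 of the 10 genes, against 15.8% of all genes tested, and above them for 0 of 10, against 15.1%. LCN2 was lower by a log2 fold change of -3.99 (SE 0.41, n = 2 and 2), with an adjusted p of 0.131, of 0.0054 with the block, and of 0.0493 without it at a pseudocount of 5, within a range of 0.0054 to 1 over all alternatives. SAA1 was at -2.10 (SE 0.43), with 0.33 and 0.00784, and CXCL16 at -2.19 (SE 0.52), with 0.384 and 0.0218. With any 1 library left out the blocked calls of LCN2 and SAA1 were kept (highest adjusted p 0.036 and 0.0363), and that of CXCL16 was lost without soft IPN replicate 1 (0.0597), soft IPN replicate 2 (0.0604) or stiff col replicate 1 (0.174). CXCL1 was at -1.31, CXCL2 at -1.09 and BIRC3 at -0.83 (SE 0.25, adjusted p 0.093 with the block), all lower in stiff col without overlap or passing, and CCL20 (0.31), CXCL3 (0.35), NFKBIA (0.01) and TNFAIP3 (-0.27) overlapped between the gels, and each of these 4 changed sign with some library left out.

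The soft gels, soft col:rBM and soft IPN, both hold rBM and differ in col-1 against alginate. Limma called 0 genes (0%), with 190 genes at an unadjusted p under 0.05, and 0 genes with the block (0%). Both soft col:rBM libraries were below both soft IPN libraries for 6 of the 10 genes, against 10.4% of all genes tested, and above them for 0 of 10, against 10.3%. SAA1 had the largest difference, -2.13 (SE 0.43, n = 2 and 2), with an adjusted p of 1, and of 0.0501 with the block. LCN2 was at -1.33, CXCL16 at -1.06 and BIRC3 at -0.95, and CXCL3, at 0.30, was the 1 gene with a positive value, which went to -0.42 without soft IPN replicate 2 and -0.27 without soft col:rBM replicate 1.

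Replicate 2 differed from replicate 1 over the 4 gels in 3617 of the 13349 genes (27.1%) by limma and BH. Without a stiff IPN library the count was 5815 or more, and without any other library it was between 1211 and 1635. Among the genes described 5 passed: CXCL1 (0.69, adjusted p 0.0348), SAA1 (0.67, 0.0181) and TNFAIP3 (0.45, 0.0361) were higher in replicate 2, and CXCL3 (-0.92, 0.0335) and CCL20 (-0.53, 0.024) were lower. CXCL1, SAA1 and TNFAIP3 were higher in replicate 2 in 4 of 4 gels, CCL20 in 0 of 4 and CXCL3 in 1 of 4, stiff IPN. Each of these calls was lost when a library of some gels was left out: soft IPN or stiff col for CXCL1 (highest adjusted p 0.12) and CCL20 (0.113), soft IPN, soft col:rBM or stiff col for CXCL3 (0.148), soft col:rBM or stiff col for SAA1 (0.0753), and soft IPN or soft col:rBM for TNFAIP3 (0.132). CXCL16 (0.71, adjusted p 0.0585) and NFKBIA (-0.40, 0.0517) passed without either stiff IPN library, with adjusted p-values up to 0.0165 and 0.00208. What differed between the trials is not given by the labels, and its part in the gel differences was not tested beyond the replicate block.

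Other genes of the pathway were read from lists by role, all compared here between stiff IPN and soft IPN with the replicate block, in which no call held without soft IPN replicate 2. Counts of genes higher in stiff IPN, which include genes that did not pass, stand against 49.5% of all genes tested. Of 14 other chemokines 5 could be tested and 3 were higher, among them CCL5, named after its values were seen. CCL5 passed the filter on low values only with stiff IPN counted (10 and 23 normalized counts), so the filter bears on its direction. Outside stiff IPN it reached 10 only in soft col:rBM replicate 1, at 11. Against 1.69% of all genes tested called higher in stiff IPN, 1 of the 5 passed. This was CXCL8, another CXCR2 ligand 126 kb from CXCL1, at 848 and 418 normalized counts in soft IPN and 1973 and 3004 in stiff IPN (log2 fold change 2.03, adjusted p 0.0385, and passing without either stiff IPN library but in none of the other 6 fits that leave out 1 library, 0.469 at most). CXCL6, CXCL9, CXCL12 and CCL2, named after their values were seen, were at 0 in all 8 libraries. Of 8 chemokine receptors 2 could be tested, CXCR4 and ACKR3, and 0 passed. The receptors that the described chemokines bind, named after their values were seen, were low in these epithelial cells: CXCR2 reached at most 2 normalized counts, under the floor, CXCR6 was at 0 throughout, and CCR6 reached at most 8, above the floor in 7 of the 8 libraries.

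Other acute phase and antimicrobial genes stood beside LCN2 and SAA1: 8 of 12 could be tested and 7 were higher in stiff IPN. With the block 6 passed as higher, against 1.69% of all genes tested, and the median log2 fold change of the 8 was 1.55. The 7 and the median include DEFB1, named after its values were seen, which passed the filter on low values only through stiff IPN. It was at 14 and 15 normalized counts there and between 2 and 6 elsewhere, so the filter decided its direction. DEFB1 is not among the 6 that passed. Of these 6, the 3 with the largest differences were PI3, an elastase inhibitor (3.59, adjusted p 0.0131), SAA2 (2.09, 0.0451) and S100A8, a subunit of calprotectin (1.96, 0.0061). The 1 lower gene, C3, named after its values were seen, was the most abundant of the list. It measured 41634 and 48032 normalized counts in soft IPN and 30379 and 23650 in stiff IPN (-0.74, adjusted p 0.0588 with the block). Besides soft IPN replicate 2, without which 0 of the 6 passed, leaving out soft IPN replicate 1 ended the calls of PI3 (0.0537), SAA2 (0.061), CFB (0.0592) and SLPI (0.104), so that 2 of the 6 passed. Leaving out stiff IPN replicate 2 ended that of SAA2 (0.0775), and SLPI, like CFB named after its values were seen, passed in 2 of the 8 fits that leave out 1 library. Between stiff col and stiff IPN 6 of the 8 passed as lower in stiff col, against 1.47% of all genes tested. Among them PI3 was at -4.83, SAA2 at -2.46 and S100A8 at -1.89. The median of the 8 was -1.68. This median also includes DEFB1, which did not pass and whose direction the filter decided here too. The PI3 and S100A8 calls held there without any 1 library. Those of SAA2 and CFB were lost without soft IPN replicate 1 or 2, stiff IPN replicate 2, or stiff col replicate 1 or 2 (highest adjusted p 0.267 and 0.2), and that of SLPI without stiff col replicate 1 (0.0545), so that 3 of the 6 passed without that library.

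Among the NF-κB machinery itself, 0 of 5 subunit genes passed between stiff IPN and soft IPN, with a median of -0.18. Over all genes tested the block called 1.69% as higher in stiff IPN and 2.13% as lower. Of the 2 subunit genes with the highest means over the 8 libraries, RELA measured 1328 and 1394 normalized counts in soft IPN and 1056 and 1045 in stiff IPN, and NFKB1 measured 737 and 1410 against 1064 and 1088. The list of 9 IκB and IKK genes leaves out NFKBIA, described above, which was at -0.15. Of these 9 none was below 0, with a median of 0.43 and BCL3, named after its value was seen, at 0.00. Of these 1 passed, NFKBIZ, which encodes the atypical nuclear protein IκBζ (1.15, adjusted p 0.0245, and 0.0656 without soft IPN replicate 1 or 0.34 without soft IPN replicate 2). Of 16 upstream ligands, receptors and adaptors 13 could be tested and 0 passed. IL1A averaged 5353.5 normalized counts over the 8 libraries, whereas TNF, named after its values were seen, reached at most 10.

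Of 10 other feedback genes 9 were higher in stiff IPN, with a median of 0.39, and 1 passed: ZC3H12A, which encodes an RNase that degrades cytokine mRNAs (0.92, adjusted p 0.0338, lost without soft IPN replicate 1 at 0.0811, soft IPN replicate 2 at 0.385 or stiff col replicate 2 at 0.0514). Of 17 other NF-κB target genes 13 could be tested, 9 were higher, the median was 0.83 and 3 passed, LIF (2.52), PLAU (1.05) and CFLAR (0.95), none of which passed without soft IPN replicate 1 either (0.0573, 0.0653 and 0.0926). CFLAR was also lost without stiff col replicate 1 (0.0528) or 2 (0.054). The counts that passed in both lists stand against 1.69% of all genes tested called higher in stiff IPN with the block. Between stiff col and stiff IPN the block called 1% of all genes tested as higher in stiff col and 1.47% as lower. There 1 of the 10 feedback genes passed, TNFAIP2 (-1.27), and 3 of the 13 targets, LIF (-2.25), IL32 (-2.23) and PLAU (-0.94). Of the 13 upstream genes 1 passed, TLR2 (1.17, higher). Each of these 5 was lost without soft IPN replicate 1 or 2 or stiff col replicate 1 or 2, with a highest adjusted p of 0.504 for TLR2 and 0.152 to 0.321 for the others. LIF and TNFAIP2 were also lost without stiff IPN replicate 2 (0.0544 and 0.0515), and TLR2 without soft col:rBM replicate 1 or 2 (0.065 and 0.0587). No gene of the other chemokine, receptor, subunit or IκB and IKK lists passed there, and no gene of any list passed between stiff col and soft col:rBM or between the soft gels.

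**Figure D3:**
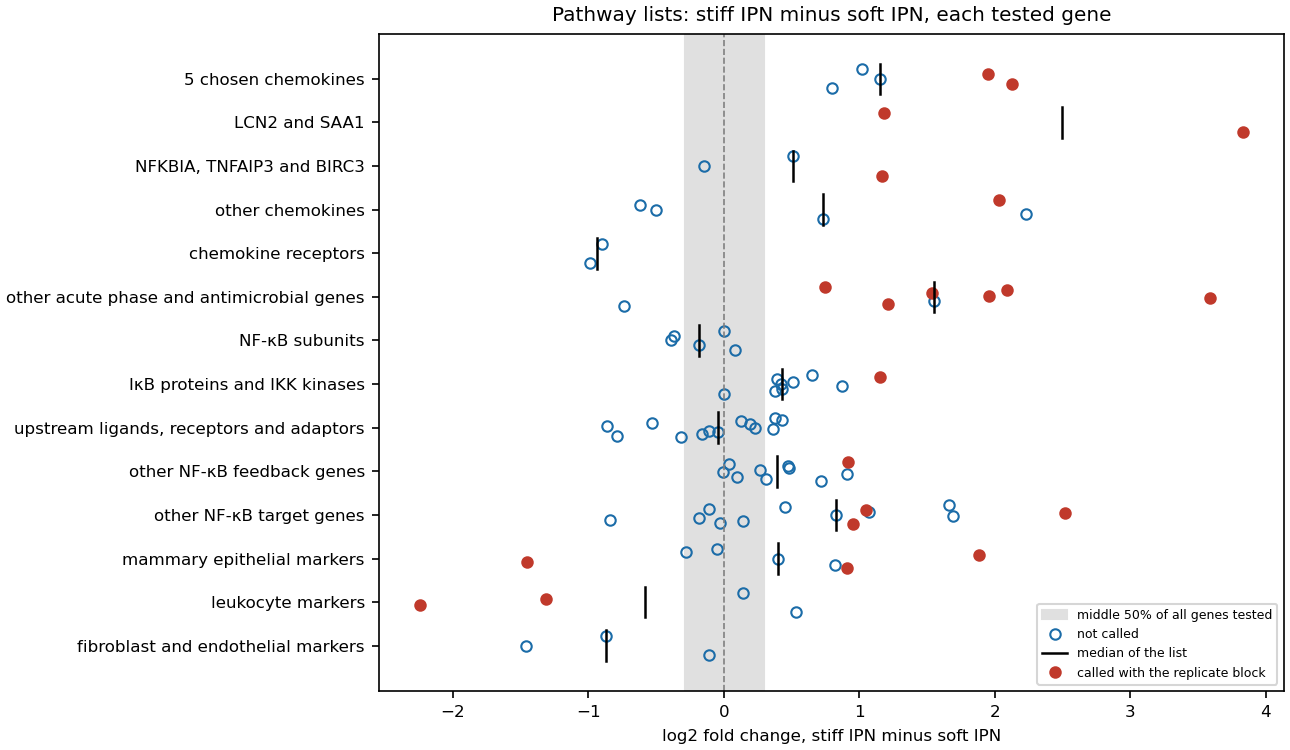
Log2 fold changes of stiff IPN minus soft IPN for each tested gene of the described genes and the other lists, 1 point per gene, filled where limma with the replicate block called it, with a line at the median of each list and a grey band over the middle 50% of all genes tested. The acute phase and antimicrobial genes have a median of 1.55 and the NF-κB subunits one of -0.18. The first median includes DEFB1, which passed the filter on low values only through stiff IPN.

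Markers of the cells gave these values beside the same comparison. There the block called 1.69% of all genes tested as higher in stiff IPN and 2.13% as lower. Left out of all sums and counts were 1 gene of the mammary epithelial list and 1 of the leukocyte list as first drawn up. Their values are not given, so the sums and counts describe the remaining markers only. The 7 mammary epithelial markers summed to between 46962 and 135378 normalized counts per library, none was at 0, ITGB4 had the highest mean over the 8 libraries though not in stiff IPN, where KRT17 did, and 2 passed as higher in stiff IPN (KRT17 at 1.88 and CDH1 at 0.91) and 1 as lower (ITGB4 at -1.45). Leukocyte markers summed to 5094 and 2667 in soft IPN, 1812 and 756 in stiff IPN, 5827 and 1826 in soft col:rBM, and 4890 and 1373 in stiff col. CD68, a lysosomal protein that is not limited to leukocytes, was the most abundant on average, at 324 of the 756 in stiff IPN replicate 2. CD68 (-2.24) and CSF1R (-1.31) passed as lower in stiff IPN, while PTPRC was at 0 in all libraries. Fibroblast and endothelial markers summed to 1412 and 832 in soft IPN, 973 and 874 in stiff IPN, 895 and 575 in soft col:rBM, and 1398 and 1149 in stiff col, with DCN the most abundant on average over the 8 libraries and 0 of 3 tested passing. Between stiff col and stiff IPN, KRT17 (-2.57), EPCAM (-1.71), CDH1 (-1.63) and KRT14 (-1.52) passed as lower, against 1.47% of all genes tested. KRT14 was named after its value was seen. CD68 (1.72) passed as higher, against 1%. Of the calls between stiff IPN and soft IPN, CDH1 and CSF1R were also lost without soft IPN replicate 1 (0.105 and 0.142), and CSF1R without stiff col replicate 1 or 2 (0.0506 and 0.0522). Of those between stiff col and stiff IPN, EPCAM and KRT14 were lost without soft IPN replicate 1 or 2 or stiff col replicate 1 or 2 (up to 0.242 and 0.27), and CDH1 and CD68 without stiff col replicate 1 (0.0622 and 0.141). The part of these markers in the differences of the described genes was not tested.

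The κB consensus, searched on both strands from 250 bases before to 50 after each start, was held by the promoters of all 8 described genes with a RefSeq entry, against 2958 of 27305 promoters (10.8%). No entry was matched for SAA1 and CXCL16. The genes were chosen by name as chemokines, LCN2 and NF-κB response genes, so this share is a description and not a test. CXCL1, CXCL2 and CXCL3 are close relatives whose matches have the same letters, so theirs are not separate instances. The consensus was held by 5 of 11 promoters of other chemokines, 6 of 13 of other NF-κB targets, 1 of 5 of other acute phase and antimicrobial genes, 2 of 10 of other feedback genes and 0 of 6 of chemokine receptors. Among the pathway's own parts it was held by 2 of 4 promoters of NF-κB subunits, 2 of 7 of IκB and IKK genes and 1 of 13 of upstream genes, and among markers by 0 of 2 mammary epithelial, 0 of 5 leukocyte and 1 of 3 fibroblast and endothelial promoters. NFKBIA, whose values overlapped between all gels, holds a match as LCN2 does. The part of the matches in the gel differences was not tested.

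**Figure D4:**
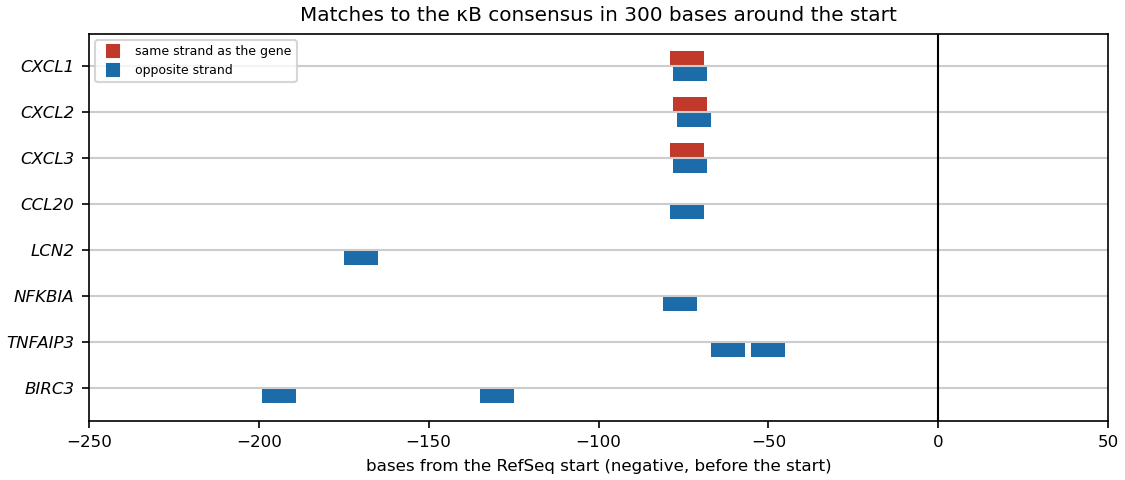
Position of each κB consensus match, in bases before the start of the gene, for the 8 described genes with a promoter entry, with the strand of the match relative to the gene. Matches begin between 199 and 55 bases before the start, and those of CXCL1, CXCL2, CXCL3, CCL20 and NFKBIA between 81 and 77.

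The genes with the most similar values to 1 gene of each role were sought among 9951 genes by Pearson r over the 8 libraries, which share gels and trials, so that r is a description only. For LCN2 they were MOAP1 (r = 0.983), RAB3IP (0.980) and NIT2 (0.975). RAB3IP measured 160 and 158 normalized counts in soft IPN, 374 and 446 in stiff IPN, 153 and 128 in soft col:rBM, and 149 and 151 in stiff col, and so was high in the gel where LCN2 was high. For CXCL1 they were ZC3H12A (0.974), MRPL36 (0.971) and NQO1 (0.961). For NFKBIA they were C1orf123 (0.991), CD27-AS1 (0.989) and TMEM14C (0.985), and C1orf123 had its higher value in replicate 1 in all 4 gels.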

How the data were processed

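The authors trimmed reads with Trim Galore 0.3.3, aligned them to hg19 (Bowtie2 in the methods, TopHat2 2.0.13 in the processing notes), removed unmapped, low quality and multimapped reads with SAMtools 1.1, and counted with HTSeq under R 3.2.0 with DESeq2. The annotation and strandedness were not stated. The deposited values are a signal, counts scaled by 1 factor per library and rounded by the authors, so no count test was used. After 28 symbols turned into dates were removed, genes reaching 10 in 2 or more libraries were tested on log2(value + 1) with limma 3.58.1 (trend and robust, statmod 1.5.0, R 4.3.3) and BH at 0.05, with 1 mean per gel over all 8 libraries. Replicate differences correlated across genes in all 6 pairs of gels. The r was 0.28, 0.39 and 0.4 in the pairs with stiff IPN and 0.65 to 0.82 in the other pairs. Replicate numbers, taken from the labels, were used to pair the libraries in the block. The labels do not say that a replicate number marks the same trial in all gels. Alternatives were other pseudocounts, filters and scalings, only the groups compared, the replicate block and leaving out each library. The genes described and the lists were chosen with earlier results of these data known. All described genes are named, then up to 3 passing genes of each list by size of change, or at most the 2 with the highest means where none passed, and the 3 genes most like LCN2, CXCL1 and NFKBIA. Python 3.11.15, numpy 2.4.6, pandas 2.3.3, matplotlib 3.10.9 and GENCODE 44 (lifted to hg19) were used.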

Additional observations from a re-analysis of the deposited data

How the results depend on the processing

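Counts between gels were 0 in every alternative except these. For stiff IPN minus soft IPN, limma called 2 genes with only the groups compared (LCN2 and S100A7) and 511 with the replicate block. For stiff col minus stiff IPN it called 4 with a pseudocount of 5 (LCN2, A2ML1, CEACAM6 and S100A7), 330 with the block, and 0 to 5 with a library left out, the 5 (KLK7, MAL2, MUC16, S100A7 and SPRR1B) without stiff col replicate 2. For the difference of both stiffness effects it called 2 with the block. These genes other than LCN2 were named after their values were seen. Where a gel keeps 1 library, that library is assumed to vary like those of the other gels. The count between replicates, 3617, went from 1211 to 5830, above it without a stiff IPN library (5830 and 5815) and below it without any other. Blocked counts, whose alternatives were chosen after seeing the data, went from 0 (without soft IPN replicate 2) to 2686 (without stiff IPN replicate 1) for stiff IPN minus soft IPN, and from 36 (without stiff col replicate 1) to 2212 (without stiff IPN replicate 1) for stiff col minus stiff IPN. The block changed no call of the described genes beyond those given. LCN2 has no value with a filter of 10 in every library. Rescaling shifted the median of all genes by at most 0.05. No described gene that passed changed sign. Of those that did not pass, NFKBIA went to -0.02 for stiff col minus stiff IPN with upper quartile rescaling, and these log2 fold changes changed sign with a library left out. For stiff IPN minus soft IPN it was NFKBIA (-0.39 to 0.10). For stiff col minus soft col:rBM they were CXCL16 (-0.65 to 0.68) and NFKBIA (-0.15 to 0.48). For stiff col minus stiff IPN they were CXCL3 (-0.25 to 0.96), CCL20 (-0.03 to 0.65), NFKBIA (-0.30 to 0.32) and TNFAIP3 (-0.68 to 0.14). For soft col:rBM minus soft IPN they were CXCL2 (-0.63 to 0.36) and CXCL3 (-0.42 to 1.01). For the difference of both stiffness effects they were CXCL1 (-1.31 to 0.12), CXCL3 (-0.66 to 0.77), SAA1 (-0.52 to 0.59), TNFAIP3 (-0.24 to 0.58) and BIRC3 (-0.17 to 0.41). For replicate 2 minus replicate 1 they were CXCL2 (-0.38 to 0.20), LCN2 (-0.06 to 0.32) and BIRC3 (-0.05 to 0.28). The cause was not tested.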
